A study of Mus musculus with 10 samples.

Results

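DNA replication and nucleotide synthesis genes were described in long-term hematopoietic stem cells (LT-HSCs) of the fetal liver. The list held 49 genes chosen by name: those for loading and firing replication origins, for the replicative polymerases and their clamp, and for supplying deoxynucleotides. Of these, 48 had a row in a table of 17404 genes, and all 48 passed the filter of at least 11 counts in total that left 16725 genes. Geminin (Gmnn) is not analysed here. RNA was sequenced in bulk from LT-HSCs sorted as CD150+ cells from livers of mouse embryos at E14.5, in mid-gestation. Of the 10 libraries, 6 came from KO embryos (Tnfrsf11aCre; Spi1f/f) and 4 from littermates without Cre (Tnfrsf11a+/+; Spi1f/f). The second group is called WT. All embryos of both groups therefore carried floxed Spi1, the gene for the transcription factor PU.1. Cre was expressed from the Tnfrsf11a locus, which is active in macrophage progenitors. The study used the KO to remove fetal macrophages and regarded the LT-HSCs themselves as unrecombined. The comparison therefore asks how LT-HSCs differ where their macrophage neighbours are missing.

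A cell copies its genome once per division, in steps carried out by fixed complexes. In G1 the origin recognition complex (ORC) and CDC6 with CDT1 load a ring of MCM2 to MCM7 on DNA, and in S phase CDC45 and the GINS complex join the ring to form the active helicase. Polymerase alpha with primase starts each new strand, replication factor C (RFC) loads the PCNA clamp, and polymerases delta and epsilon extend, while RPA covers single strands and FEN1 with ligase joins the fragments. Most adult hematopoietic stem cells rest outside the cycle, whereas those of the fetal liver divide and expand in number, and RNAs of many of these genes are made mainly from late G1 into S phase.

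The depth was 5315435 to 30941726 counts on genes per KO library and 7633446 to 18256010 per WT library. The members had between 75 and 25415 counts in a library. The marker of the sort, Slamf1 (CD150), averaged 38 ± 28 CPM (SD, n = 6) in KO and 24.8 ± 6.29 (SD, n = 4) in WT, where CPM is the count scaled to library size after TMM normalisation. Cd48, absent from the surface of LT-HSCs, averaged 3.42 ± 2.8 CPM (SD, n = 6) in KO and 5.16 ± 5.81 (SD, n = 4) in WT. RNA of other cells was present in uneven amounts: haemoglobin transcripts took 0.582 to 20.6% of the TPM, a unit scaled for depth and transcript length, in the KO libraries and 0.212 to 35.9% in the WT libraries. The 12 macrophage markers summed to 213 to 921 CPM in KO and 91.5 to 707 in WT. Mrc1 had the highest mean of the 12, 329 ± 222 CPM (SD, n = 6) in KO and 283 ± 210 (SD, n = 4) in WT. Vcam1 came next, at 98.4 ± 44.6 and 65.6 ± 7.46. The sums thus say little about markers at low levels. Of the 12, 9 had a log2 fold change (KO over WT) below 0, with a median of -1.48, and 1 was called lower. Of all genes tested, 46.9% were below 0 and 2.67% were called lower. Marco, the marker of the 12 called lower, was at 0 counts in every KO library and in no WT library. Clec4f was at 0 in 9 of the 10 libraries, and Vcam1, Cd68 and Mrc1 had log2 fold changes of 0.59 (SE 0.31), 0.30 (SE 0.56) and 0.22 (SE 0.94).

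Most members had lower fitted levels in KO, and few of them passed the test singly. The log2 fold change, KO over WT, was below 0 for 45 of 48 members, beside 46.9% of all genes tested, and the median over the members was -0.50, beside 0.06 over all genes tested. At an adjusted p below 0.1 (quasi-likelihood test of edgeR, adjusted after Benjamini and Hochberg over all genes tested), 4 members were lower, namely Pola2, Rfc4, Gins1 and Orc5. They made up 8.33% of the members, where 2.67% of all genes tested were called lower. No member was called higher, by edgeR or by DESeq2, and none was higher at an unadjusted p below 0.05, where 1.32% and 8.6% of all genes tested were higher by the adjusted and the unadjusted p of edgeR. At an unadjusted p below 0.05, 24 members (50%) were lower, where 10.2% of all genes tested were. The 6 KO and 4 WT libraries did not overlap for 5 members, all lower in KO: Orc5, Pola2, Pole4, Rfc4 and Rpa2. This was 10.4% of the members, and 3.48% of all genes tested had all KO libraries below all WT libraries. No member had all KO libraries above all WT libraries, as 2.88% of all genes tested did. In bulk RNA, fewer cycling cells in the sort and less RNA of these genes per cell cannot be told apart.

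The calls of edgeR lay close to the threshold and depended on single libraries and on the terms of the fit, while the direction over the list did not. DESeq2 with the settings of the study, a log2 fold-change threshold of 0.1, called 6 members lower (those 4, Orc2 and Cdc45). It called 3.29% of all genes tested lower. Its adjusted p was 0.00121 for Pola2, 0.00649 for Rfc4, 0.0327 for Gins1 and 0.0464 for Orc5. It was 0.0719 for Orc2 and 0.0939 for Cdc45. No member passed after KO replicate 1, 2, 4, 5 or 6 or WT replicate 1 was left out of the edgeR fit, although 17 to 24 members without such a KO replicate, and 13 without WT replicate 1, were lower at an unadjusted p below 0.05. Of all genes tested, 8.47 to 10% and 7.93% were lower by that measure in the same fits. No gene, member or not, passed with an offset for transcript length or with the level of Xist as a covariate. Xist RNA is made from the inactive X chromosome of female cells, and its level stood for the sex of the embryos. Between 43 and 46 members had a log2 fold change below 0 whichever library was left out.

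**Figure D1:**
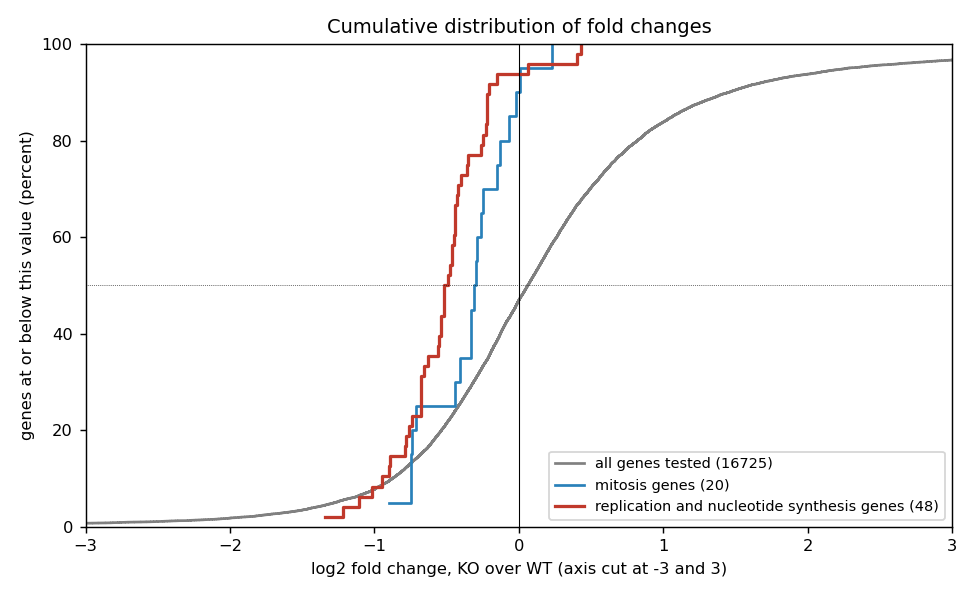
Cumulative share of genes (vertical axis, percent) at or below each log2 fold change, KO over WT (horizontal axis), for the 48 members, 20 mitosis genes and all 16725 genes tested. The line of the members crosses 50% at about -0.50 and that of all genes at 0.06, and the line of all genes is wider on both sides.

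Promoters are shown for the 5 members whose KO and WT libraries did not overlap. The sequences are from RefSeq (GRCm38.p6) and run from 250 bases before the annotated start up to the first base of the gene annotated as exon in Gencode vM21, with CCAAT and GGGCGG on either strand in capitals.
Orc5, chr5:22550430-22550588, minus strand: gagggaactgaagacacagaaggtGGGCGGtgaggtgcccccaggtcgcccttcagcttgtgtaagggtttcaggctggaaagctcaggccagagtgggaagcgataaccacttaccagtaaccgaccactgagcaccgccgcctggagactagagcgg
Pola2, chr19:5964207-5964456, minus strand: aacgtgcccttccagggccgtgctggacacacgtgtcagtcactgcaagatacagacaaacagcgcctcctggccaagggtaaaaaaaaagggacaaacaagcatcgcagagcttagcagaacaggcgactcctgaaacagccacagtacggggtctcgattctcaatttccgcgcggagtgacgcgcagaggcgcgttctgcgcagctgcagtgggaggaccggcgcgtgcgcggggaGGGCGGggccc
Pole4, chr6:82652930-82653124, minus strand: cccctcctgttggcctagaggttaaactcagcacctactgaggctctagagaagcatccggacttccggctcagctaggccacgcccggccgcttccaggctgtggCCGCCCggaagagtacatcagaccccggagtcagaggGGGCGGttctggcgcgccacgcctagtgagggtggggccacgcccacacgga
Rfc4, chr16:23127738-23127980, minus strand: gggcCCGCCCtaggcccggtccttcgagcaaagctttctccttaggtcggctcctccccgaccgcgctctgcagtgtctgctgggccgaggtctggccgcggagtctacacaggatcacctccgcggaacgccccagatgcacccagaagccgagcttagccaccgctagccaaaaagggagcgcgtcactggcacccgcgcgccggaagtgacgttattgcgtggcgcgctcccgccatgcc
Rpa2, chr4:132768110-132768331, plus strand: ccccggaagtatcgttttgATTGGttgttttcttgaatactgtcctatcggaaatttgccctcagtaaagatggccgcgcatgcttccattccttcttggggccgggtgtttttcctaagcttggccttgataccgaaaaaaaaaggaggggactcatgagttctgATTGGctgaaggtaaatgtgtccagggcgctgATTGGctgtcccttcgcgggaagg
In the full window of 250 bases, Rpa2 held CCAAT 3 times and no GGGCGG. Orc5 and Pole4 held GGGCGG 2 times each, and for Orc5 the match nearer the start lies past its printed stretch. Pola2 and Rfc4 held GGGCGG once each, and Orc5, Pole4, Pola2 and Rfc4 held no CCAAT. Of the 48 members, 41 had such a window. Within 250 bases before the start, GGGCGG was found for 30 of these 41 members (73.2%), beside 35.4% of the 27025 genes with a window, and CCAAT for 24 (58.5%), beside 37.5%. These 27025 genes were not limited to the 16725 genes tested, so the shares are not set against the tested genes. The factors of the E2F family bind TTTCCCGC, TTTCGCGC, TTTGCCGC or TTTGGCGC, and many replication genes are known E2F targets. Any of these letters, on either strand, was found for 10 of the 41 members (24.4%), beside 2.16% of all genes with a window.
Of the members described below library by library, Cdc6, Mcm6 and Pole4 held such letters, shown here in capitals with 11 bases on either side. The third Mcm6 match lies on the other strand and overlaps the first.
Cdc6, chr11:98908002-98908031, plus strand: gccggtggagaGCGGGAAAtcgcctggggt
Mcm6, chr1:128359797-128359826, minus strand: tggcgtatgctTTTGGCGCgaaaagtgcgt
Mcm6, chr1:128359734-128359763, minus strand: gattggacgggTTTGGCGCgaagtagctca
Mcm6, chr1:128359793-128359822, minus strand: gtatgcttttgGCGCGAAAagtgcgtgcgg
Pole4, chr6:82652890-82652919, minus strand: ctctacccggcGCGGGAAAggggccgaaat
The window of Cdc6 (chr11:98907901-98908150) and its match lie inside the gene as annotated in Gencode vM21, which starts at chr11:98907801. The match of Pole4 lies past the end of its printed stretch, and Orc5, Pola2, Rfc4 and Rpa2 held none of these letters. The median log2 fold change was -0.49 over the 10 members with the letters and -0.54 over the 31 with a window but without them. A match of letters is not a binding site.

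**Figure D2:**
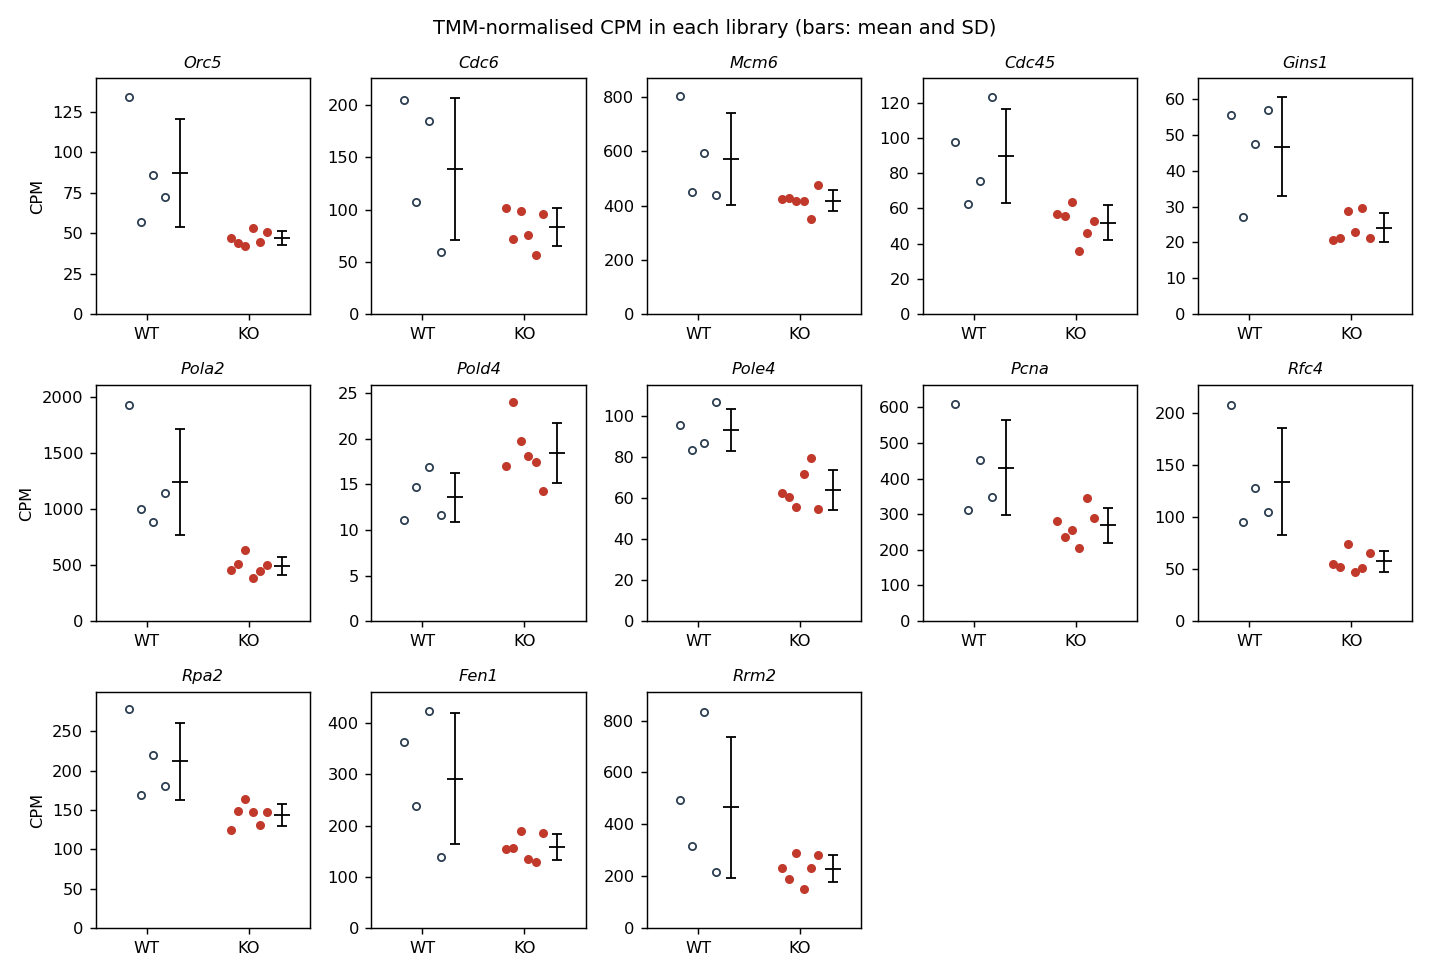
CPM (vertical axes, from 0, different for each gene) in each of 4 WT libraries (open circles) and 6 KO libraries (filled circles) for 13 members, with the mean and SD as bars. All KO points lie below all WT points for Orc5, Pola2, Pole4, Rfc4 and Rpa2, and for Pold4 the KO points lie mostly above.

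All 6 ORC genes had a log2 fold change below 0, with a median of -0.52. Orc5, a subunit of the ring that binds origins (chr5:22486485-22550429), was the one of them that fell at an adjusted p below 0.1 by edgeR. Orc5 measured 47.1, 43.8, 42, 53.3, 44.4 and 51 CPM in KO replicates 1 to 6 and 134, 56.7, 86.1 and 72.3 in WT replicates 1 to 4. The KO libraries lay within a narrow band below the lowest WT library, and WT replicate 1 stood above the rest. The KO level was 0.538 times that of WT (log2 fold change -0.90, SE 0.23, adjusted p = 0.0836 by edgeR), and the adjusted p was 0.0131 to 0.259 over the alternatives. Orc2 had a larger log2 fold change of -1.11 (SE 0.32, adjusted p = 0.103 by edgeR), and DESeq2 with the settings of the study called it lower, at an adjusted p of 0.0719. It had 161 CPM in WT replicate 1 and 53.2 to 69.3 in the other WT libraries. It shares 1150 of its 3857 exonic bases with Nif3l1 on the other strand, and the strand of the reads is not given. Nif3l1 was itself called lower, with a log2 fold change of -0.69 (adjusted p = 0.0997, edgeR). Reads from the shared bases, 29.8% of the exonic bases of Orc2, cannot be told apart between the pair. Orc1, the subunit whose level follows the cycle, averaged 18.8 ± 3.22 CPM (SD, n = 6) in KO and 30.3 ± 17.3 (SD, n = 4) in WT (log2 fold change -0.68, SE 0.35). Orc6, Orc4 and Orc3 had log2 fold changes of -0.36, -0.25 and -0.23, the last with the KO libraries among the WT libraries.

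Cdc6 and Cdt1 load the MCM ring onto ORC, and neither passed the adjusted threshold. Cdc6 measured 102, 71.8, 98.7, 75.7, 56.7 and 95.5 CPM in KO replicates 1 to 6 and 205, 107, 185 and 59.2 in WT replicates 1 to 4. WT replicate 4 thus lay just above the lowest KO library, and the other WT libraries lay above all KO libraries. Its log2 fold change was -0.74 (SE 0.31, adjusted p = 0.22, edgeR), and with WT replicate 4 left out Cdc6 and Cdt1 were both among 9 members called lower, where 2.71% of all genes tested were. Cdt1 averaged 88.8 ± 13.1 CPM (SD, n = 6) in KO and 137 ± 64.4 (SD, n = 4) in WT, with WT replicate 4 below every KO library.

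All 6 subunits of the MCM ring had log2 fold changes below 0, within a band from -0.52 for Mcm7 to -0.22 for Mcm3, with a median of -0.45, and none was called. The summed CPM of the 6 genes was 1617 to 2214 in the KO libraries and 1633 to 3521 in the WT libraries, so the groups overlapped through WT replicate 4 at 1633. Mcm6, with the smallest p of the ring, measured 425, 427, 419, 419, 350 and 476 CPM in KO replicates 1 to 6 and 805, 450, 593 and 440 in WT replicates 1 to 4. Of the KO libraries, 5 lay below the lowest WT library, and the gap was small against the WT spread. Its log2 fold change was -0.45 (SE 0.19, adjusted p = 0.223, edgeR). Mcm2, Mcm5 and Mcm7 were lowest of all in WT replicate 4, which lay below every KO library for 13 of the 48 members. For Mcm7, 33.4% of the 31-base words of its transcripts also occur in other genes, mostly in Gm5487, which limits how its reads could be placed.

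CDC45 and GINS turn the loaded ring into a helicase, and MCM10 is needed for the ring to start unwinding. All 6 of these genes had log2 fold changes below 0. Gins1 (chr2:150905400-150931280), a subunit of GINS, fell at an adjusted p below 0.1. Gins1 measured 20.8, 21.3, 28.8, 22.8, 29.7 and 21.3 CPM in KO replicates 1 to 6 and 55.5, 27, 47.3 and 57 in WT replicates 1 to 4. The groups were apart except for WT replicate 2, which lay below KO replicates 3 and 5. The KO level was 0.517 times that of WT (log2 fold change -0.95, SE 0.24, adjusted p = 0.0836 by edgeR; 0.0088 to 0.259 over the alternatives). Gins4, Gins2 and Gins3 had log2 fold changes of -0.52, -0.35 and -0.68, of which that of Gins4 had an unadjusted p below 0.05. Gins2 shares 2758 of its 4097 exonic bases with Gse1 on the other strand, whose own log2 fold change was 0.97 (adjusted p = 0.371, edgeR). The coding transcript of Gins2, ENSMUST00000034278, had a log2 fold change of -0.09 (SE 0.22). A transcript with a retained intron, ENSMUST00000155609, had -0.86 (SE 0.25). Cdc45 measured 57, 56, 63.9, 35.9, 45.9 and 53.1 CPM in KO replicates 1 to 6 and 97.8, 62.6, 75.3 and 123 in WT replicates 1 to 4. Only KO replicate 3 reached above the lowest WT library. The log2 fold change of Cdc45 was -0.79 (SE 0.23, adjusted p = 0.105, edgeR), and DESeq2 with the settings of the study gave an adjusted p of 0.0939, within a range of 0.0305 to 0.31 over the alternatives. Mcm10 averaged 55.4 ± 14.8 CPM (SD, n = 6) in KO and 88.7 ± 41 (SD, n = 4) in WT (log2 fold change -0.68, SE 0.30). Its coding transcripts differed in sign, with 0.36 (SE 0.97) for ENSMUST00000027980 and -1.18 (SE 0.47) for ENSMUST00000102985. ENSMUST00000125349, with a retained intron, had -1.28 (SE 0.39).

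Pola2, the B subunit that tethers polymerase alpha to the replication fork (chr19:5940542-5964202), had the lowest log2 fold change of all members and the smallest unadjusted p, with an adjusted p equal to that of Rfc4. Pola2 measured 460, 509, 630, 387, 446 and 503 CPM in KO replicates 1 to 6 and 1927, 996, 884 and 1145 in WT replicates 1 to 4. The groups were widely apart, with the highest KO library below the lowest WT library. The KO level was 0.395 times that of WT (log2 fold change -1.34, SE 0.22, adjusted p = 0.0824 by edgeR; 0.000239 to 0.259 over the alternatives).

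That difference sat in 1 of the 2 coding transcripts to which Pola2 reads were assigned. The transcripts share all exons but the last. In the fit with transcripts in place of genes, ENSMUST00000165143 (2397 bases) held 93.5% of the Pola2 counts in KO and 97% in WT and had a log2 fold change of -1.40 (SE 0.22, adjusted p = 0.0826, edgeR). It measured 425, 465, 591, 361, 418 and 478 CPM in KO replicates 1 to 6 and 1882, 958, 849 and 1114 in WT replicates 1 to 4. The other transcript, ENSMUST00000025752 (2424 bases), measured 35.5, 44.4, 38.8, 25.9, 28.3 and 25.3 CPM in KO replicates 1 to 6 and 43.5, 37.6, 35.6 and 31.9 in WT replicates 1 to 4. These groups overlapped, although KO replicates 4, 5 and 6 lay below every WT library, and the log2 fold change was -0.17 (SE 0.22, adjusted p = 0.736, edgeR). The words of 31 bases found only in the last exon of ENSMUST00000165143 occur in part elsewhere: 81 of 445 (18.2%) are also in transcripts of 1020 other genes. None of the 475 words found only in ENSMUST00000025752, and none of the 1916 in both transcripts, are in other genes. Whether reads of other genes were assigned to that last exon was not tested. Without Pola2 the median log2 fold change of the other 47 members was -0.49.

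**Figure D3:**
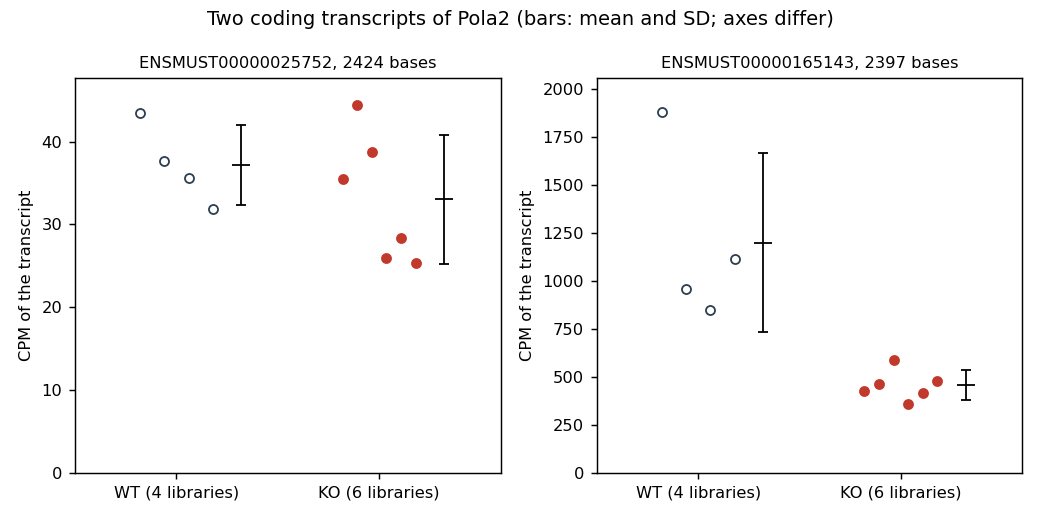
CPM of the 2 coding transcripts of Pola2 (vertical axes, from 0, with different scales) in each WT library (open circles) and KO library (filled circles), with the mean and SD as bars. ENSMUST00000025752 lies between 25.3 and 44.4 CPM in both groups, and ENSMUST00000165143 lies between 361 and 591 CPM in KO and between 849 and 1882 in WT.

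The other 3 genes of the complex had log2 fold changes below 0 and were not called by edgeR with all libraries. DESeq2 without a fold-change threshold, and edgeR without WT replicate 2, called Prim1. Prim1, the catalytic subunit of primase, averaged 89 ± 8.2 CPM (SD, n = 6) in KO and 131 ± 35.9 (SD, n = 4) in WT (log2 fold change -0.55, SE 0.19, adjusted p = 0.158, edgeR). Its leading transcript ENSMUST00000026461 had a log2 fold change of -0.92 (SE 0.20, adjusted p = 0.0826), while a transcript with a retained intron, ENSMUST00000133285, made up 20% of the Prim1 counts in KO and 6.13% in WT (log2 fold change 1.30, SE 0.76, adjusted p = 0.386). Prim2, the large subunit of primase, had a log2 fold change of -0.48 (SE 0.24). Pola1, the catalytic subunit of polymerase alpha, had -0.22 (SE 0.25), and this changed to 0.12 with WT replicate 1 left out. Its coding transcript ENSMUST00000006856 held 58.8% of the Pola1 counts in WT and had a log2 fold change of 0.24 (SE 0.28). The lower level sat in the noncoding ENSMUST00000124236 (690 bases), with 39.2% of the counts in WT and 17.9% in KO. Its log2 fold change was -1.43 (SE 0.37, adjusted p = 0.0841, edgeR).

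Pcna, the ring that holds polymerases on DNA, measured 282, 236, 255, 206, 346 and 288 CPM in KO replicates 1 to 6 and 610, 313, 451 and 349 in WT replicates 1 to 4. KO replicate 5 lay above 1 WT library, and the other KO libraries lay below all of them. The log2 fold change was -0.68 (SE 0.21, adjusted p = 0.121, edgeR), and 23.3% of the 31-base words of Pcna are shared, mainly with the pseudogene Pcna-ps2. Rfc4 (chr16:23113943-23127737), a small subunit of the loader, was the second lowest of all members by fold change. Rfc4 measured 54.8, 51.7, 73.7, 47.3, 51.3 and 65.9 CPM in KO replicates 1 to 6 and 208, 94.9, 128 and 105 in WT replicates 1 to 4. No KO library reached the lowest WT library. The KO level was 0.429 times that of WT (log2 fold change -1.22, SE 0.24, adjusted p = 0.0824 by edgeR; 0.00135 to 0.259 over the alternatives). It shares 194 of 1533 exonic bases with Eif4a2 on the other strand, whose own log2 fold change was -0.08. The other loader genes were less different, with log2 fold changes of -0.49 for Rfc2, -0.46 for Rfc3, -0.44 for Rfc5 and -0.15 for Rfc1, the large subunit.

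The 3 members with a log2 fold change above 0 were all found here, among subunits of the polymerases that extend the strands. Pold4, the smallest subunit of polymerase delta, measured 17, 24, 19.8, 18.1, 17.5 and 14.3 CPM in KO replicates 1 to 6 and 11.1, 14.7, 16.9 and 11.7 in WT replicates 1 to 4. It had the highest log2 fold change of all members, 0.43 (SE 0.27, adjusted p = 0.408, edgeR), and KO replicate 6 lay among the WT libraries. Pole, the catalytic subunit of polymerase epsilon, averaged 98.7 ± 18.2 CPM (SD, n = 6) in KO and 74.8 ± 12 (SD, n = 4) in WT (log2 fold change 0.40, SE 0.20, adjusted p = 0.3). Pold1, the catalytic subunit of polymerase delta, did not differ beyond its spread, with 0.06 (SE 0.29), and was -0.15 with WT replicate 4 left out. Pold2 and Pold3, accessory subunits of polymerase delta, had -0.42 and -0.43, each with a WT library below most KO libraries.

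Within polymerase epsilon the accessory subunits had fold changes of the opposite sign to that of Pole. Pole4, a small histone-fold subunit, measured 62.6, 60.5, 55.8, 71.6, 79.6 and 54.6 CPM in KO replicates 1 to 6 and 95.6, 83.7, 87 and 107 in WT replicates 1 to 4. All KO libraries lay below all WT libraries, although KO replicate 5 came close. Its log2 fold change was -0.54 (SE 0.17, adjusted p = 0.131, edgeR), and it was -0.22 with an offset for transcript length. Pole2 and Pole3 had -0.78 (SE 0.26, adjusted p = 0.146) and -0.52 (SE 0.22, adjusted p = 0.214). Whether the subunits differed among themselves was not tested.

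Rpa2, the middle subunit of RPA, measured 125, 149, 164, 148, 131 and 147 CPM in KO replicates 1 to 6 and 278, 169, 220 and 181 in WT replicates 1 to 4. The groups did not overlap, but KO replicate 3 and WT replicate 2 nearly met. Its log2 fold change was -0.56 (SE 0.18, adjusted p = 0.122, edgeR), and that of Rpa3, the small subunit, was -0.66 (SE 0.21, adjusted p = 0.124). With the offset for transcript length these were -0.22 (adjusted p = 0.566) and -0.28 (adjusted p = 0.493). Rpa1, the large subunit, had -0.21 (SE 0.30), with WT replicate 4 at 60.4 CPM and the other WT libraries at 213 to 261. Fen1, the nuclease that removes flaps on the lagging strand, measured 154, 156, 189, 134, 129 and 185 CPM in KO replicates 1 to 6 and 364, 239, 424 and 139 in WT replicates 1 to 4. WT replicate 4 lay among the KO libraries and the other WT libraries lay above them. For Fen1 the log2 fold change was -0.89 (SE 0.27, adjusted p = 0.113, edgeR), and 1909 of its 2422 exonic bases lie under the antisense gene Gm10143. Lig1, the ligase that seals the fragments, had -0.26 (SE 0.22).

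Ribonucleotide reductase makes deoxynucleotides from ribonucleotides, and its small subunit Rrm2 is made in S phase. Rrm2 measured 231, 190, 291, 152, 230 and 280 CPM in KO replicates 1 to 6 and 495, 316, 833 and 216 in WT replicates 1 to 4. The KO mean was 229 CPM and the WT mean 465, but the WT libraries spread so widely that the lowest lay within the KO range. The log2 fold change was -1.02 (SE 0.32, adjusted p = 0.123, edgeR), the fourth lowest of the members. Rrm1, the large subunit, had -0.54 (SE 0.22), Dut, which removes dUTP, -0.76 (SE 0.28), and Tyms, which makes thymidylate, -0.40 (SE 0.18), each with an unadjusted p below 0.05. Tk1, the salvage kinase for thymidine, had -0.22 (SE 0.25, adjusted p = 0.68).

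**Figure D4:**
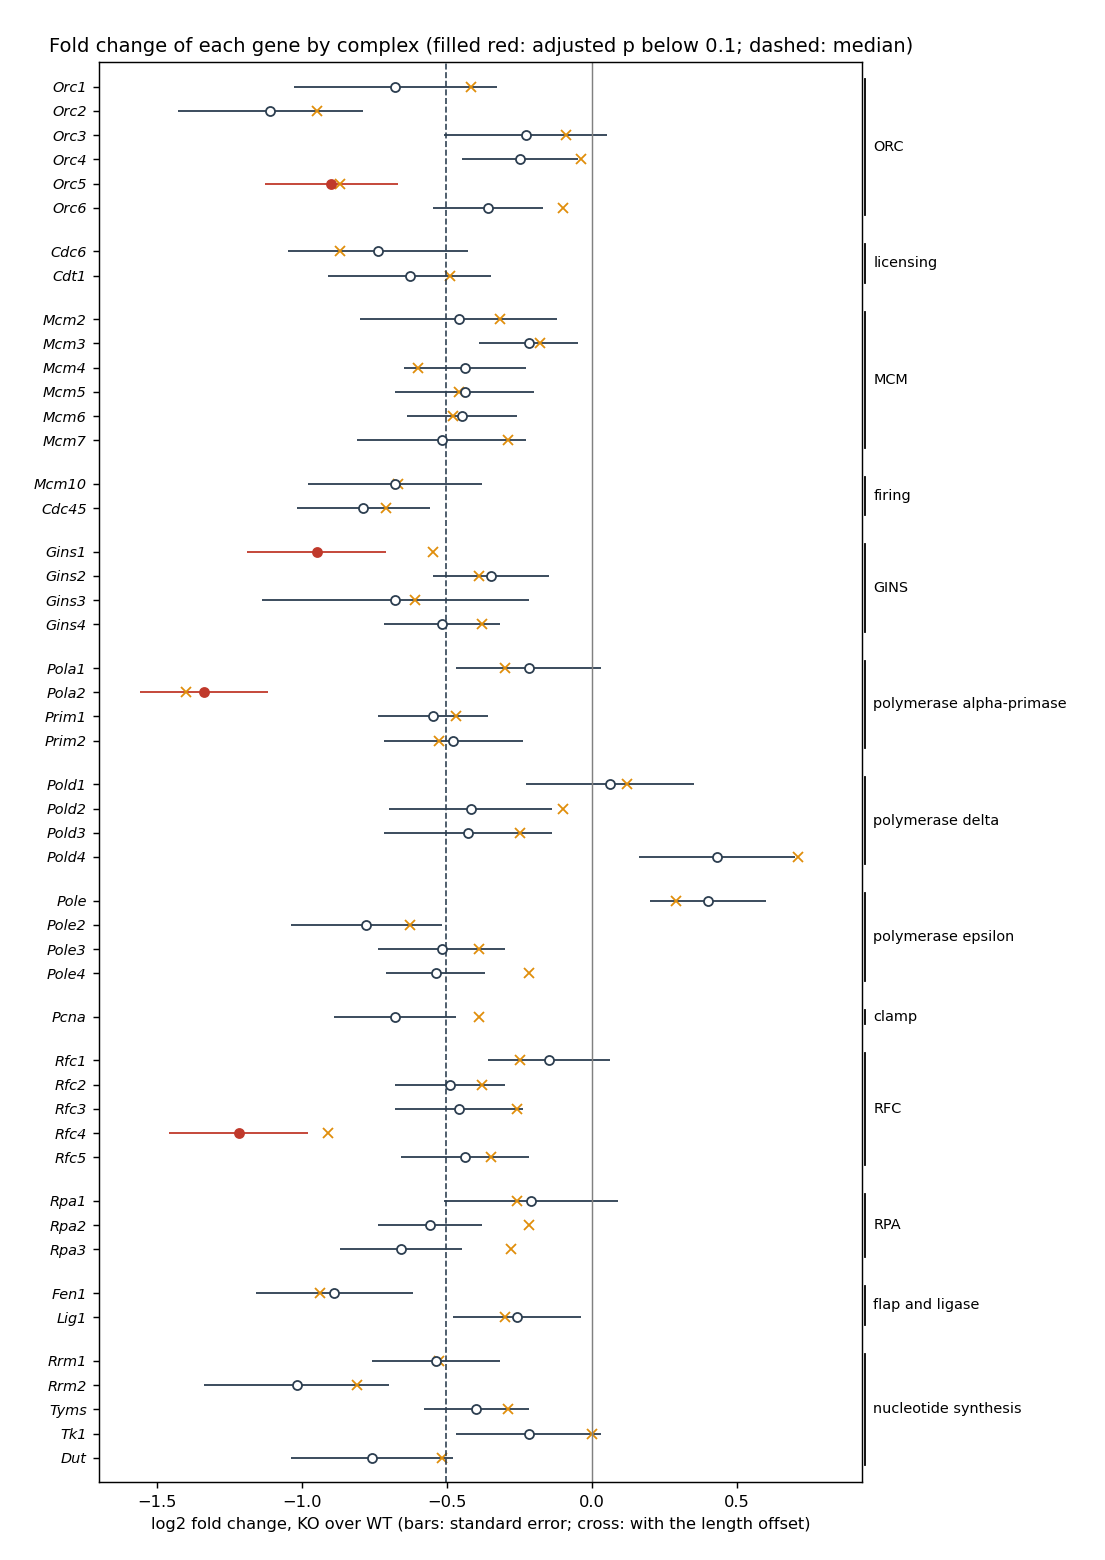
Log2 fold change, KO over WT (horizontal axis), of the 48 members in order of complex, with the standard error as bars, red filled symbols for the 4 members called lower, crosses for the fit with an offset for transcript length, and a dashed line at the median of -0.50. Symbols lie left of 0 for all genes but Pold1, Pold4 and Pole, and most crosses lie right of their symbols.

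Levels between genes were compared in TPM, which is scaled for transcript length. In WT the highest were Pola2 at 429 ± 189 TPM (SD, n = 4), Rfc2 at 266 ± 89.4, Mcm3 at 261 ± 66.9 and Pcna at 245 ± 84.9, and the lowest were Orc1 at 8.2 ± 3.47 and Gins3 at 9.3 ± 4.58. Each gene differed from the next in this order by less than the larger of their SDs. The Pola2 level came mostly from ENSMUST00000165143, with 97% of the Pola2 counts in WT. Words of its own last exon also occur in 1020 other genes, so this rank is uncertain. The Rfc2 level came mostly from short transcripts with a retained intron. ENSMUST00000201464 (831 bases) and ENSMUST00000201674 (967 bases) held 44.6% and 29% of the Rfc2 counts in WT. The coding transcript ENSMUST00000023867 (4995 bases) held 12%. The MCM ring genes lay between 62.3 and 261 TPM, and Orc1 to Orc5 lay at 33.8 TPM or less. On the TPM scale the median log2 ratio of the group means was -0.09 for the members and 0.47 for all genes, beside -0.50 and 0.05 on the CPM scale. The members thus lay 0.56 below all genes on the TPM scale and 0.55 below on the CPM scale, and 46 and 45 members lay below the median of all genes. The direction of single members without that reference depends on the scale, since 32 members had a lower mean TPM in KO.

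For the members, the WT libraries varied more among themselves than the KO libraries. The values here cover the members only, so whether this spread is particular to them was not tested. The median coefficient of variation of the members was 35.5% in WT and 15.9% in KO, and it was larger in WT for 41 of 48 members. WT replicate 1 was the highest of all 10 libraries for 30 members, and WT replicate 4 was the lowest WT library for 24. Over the members, the median log2 deviation from the WT mean was 0.46 in WT replicate 1, 0.07 in WT replicate 3, -0.26 in WT replicate 2 and -0.32 in WT replicate 4. It was -0.59 to -0.35 in the KO libraries, all below every WT library. WT replicate 1 also had the least haemoglobin RNA (0.212% of TPM) and the lowest summed level of endothelial markers (296 CPM, where the other libraries had 1112 to 7112). The median log2 fold change of the members was -0.32 with WT replicate 1 left out and -0.59 with WT replicate 4 left out.

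**Figure D5:**
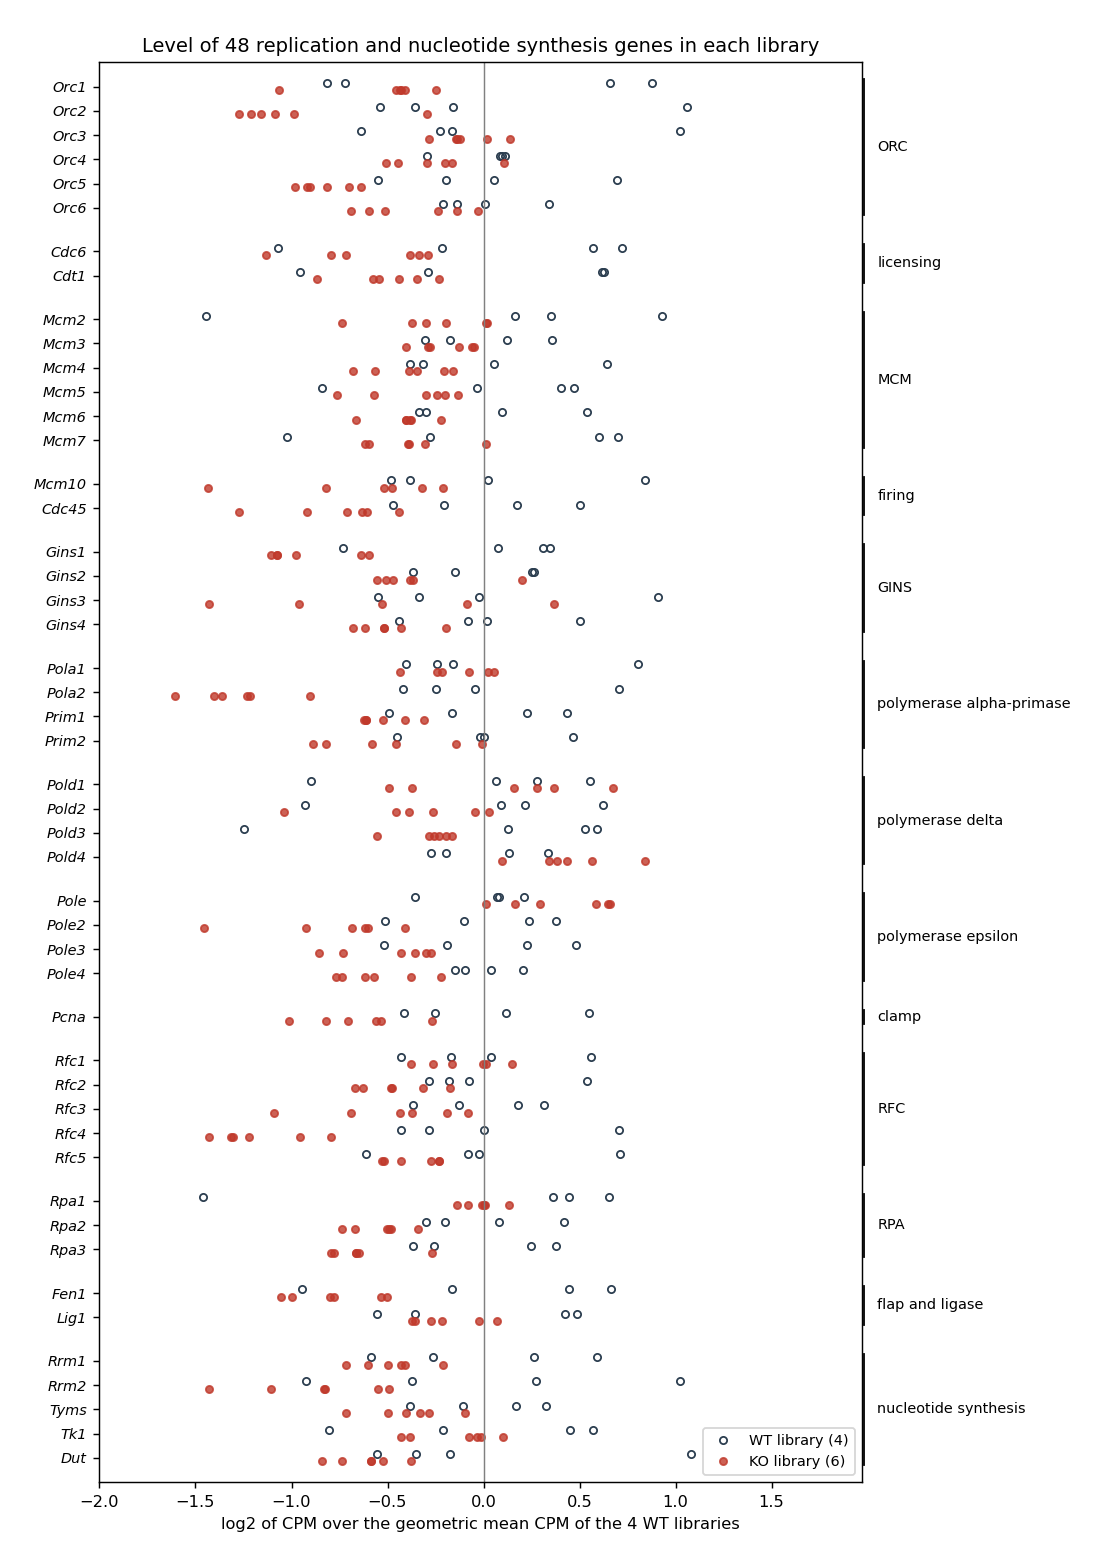
Level of each of 48 members (rows, by complex) in each library, as the log2 of CPM over the geometric mean of the 4 WT libraries (horizontal axis), with WT libraries as open and KO libraries as filled circles. KO libraries form a narrow band mostly left of 0, and WT libraries spread on both sides of it, with WT replicate 1 the highest of all libraries for 30 members.

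In lists of other genes of the same pathways, most log2 fold changes were below 0 and few genes were called. Over all genes tested, 46.9% of log2 fold changes were below 0 and 2.67% of genes were called lower. Of 30 genes for origin firing and the fork, 22 had a log2 fold change below 0 (median -0.32), and Tipin, which protects stalled forks, was called lower (-0.81, SE 0.21). Of 11 genes for chromatin behind the fork, 8 were below 0 (median -0.33), and 2 were called lower. These were Asf1a, a histone chaperone, at 48.8 ± 6.79 CPM (SD, n = 6) in KO and 97.4 ± 33.6 (SD, n = 4) in WT, and Slbp, which binds histone mRNA, with a log2 fold change of -0.75 (SE 0.17). Of 19 further genes for deoxynucleotide and thymidylate supply, 17 were below 0 (median -0.34). Nme1, a nucleoside diphosphate kinase, Mthfd2 of mitochondrial folate metabolism and Cmpk2 were called lower (-1.15, SE 0.23; -1.25, SE 0.32; and -1.38, SE 0.34). Of 16 genes for making purines and pyrimidines, 13 were below 0 (median -0.47), with Umps (-0.92, SE 0.23) and Adsl (-0.69, SE 0.19) called. No gene of these lists was called higher, at a background of 1.32% of all genes, and none was higher at an unadjusted p below 0.05.

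Of the 10 genes for E2F factors and their partners, 6 had a log2 fold change below 0, with a median of -0.25. E2f4, an E2F that represses genes in resting cells, was called lower (-0.97, SE 0.22, adjusted p = 0.0824), where 2.67% of all genes tested were. The activators did not pass, with 0.33 (SE 0.50) for E2f1, -0.84 (SE 0.83) for E2f2 and 0.46 (SE 0.23) for E2f3. Of 20 mitosis genes, 18 were below 0, with a median of -0.31, beside -0.50 for the replication and nucleotide synthesis genes. Of these, the cyclins Ccnb1 and Ccnb2 were called lower (-0.90, SE 0.20, and -0.74, SE 0.16), and Mki67 was at -0.26 (SE 0.29). The difference between the mitosis and the replication genes was not tested.

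Markers of other cells and of the stem cells moved beside these genes. The 12 genes of the stem cell list, which includes Cd48, summed to 773 to 2013 CPM in KO and 570 to 846 in WT. Of these 12, 10 had a log2 fold change above 0, and Mecom, Hlf and Cd34 were called higher (1.83, SE 0.46, then 1.84, SE 0.49, and 0.93, SE 0.23). Of all genes tested, 46.9% had a log2 fold change below 0, 1.32% were called higher and 2.67% lower. Ly6a and Cd48 were below 0 and not called (-0.88, SE 0.76, and -0.60, SE 0.91). The 7 measured erythroblast markers all had log2 fold changes below 0 (median -1.25), with sums of 556 to 3509 CPM in KO and 674 to 9713 in WT, and Epor was called lower, at 62 ± 16.3 CPM (SD, n = 6) in KO and 124 ± 46.9 (SD, n = 4) in WT. WT replicate 1, the highest library for most members, had the least haemoglobin RNA of all libraries but the second highest sum of erythroblast markers in WT, 3179 CPM. The megakaryocyte, hepatoblast and endothelial markers summed to 249 to 3671, 75 to 6284 and 1112 to 7112 CPM in KO and to 250 to 1269, 155 to 4364 and 296 to 4425 in WT, and 11 granulocyte and mast cell markers to 12.6 to 1156 and 22.1 to 2139. The part of other cells in the lower replication genes was not tested.

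Transcript length moved with the fold change over all genes. Across 15993 genes with a length, which are not independent replicates, Spearman's rho of log2 fold change and mean transcript length was 0.22. That length was the plain mean over the transcripts of a gene, and the offset used it too. For the 48 members the length was a mean weighted by TPM, and rho was -0.03. These values of rho rest on unlike lengths and cannot be compared directly. The 24 members with shorter transcripts and the 24 with longer ones, divided at 1868 bases of the weighted length, both had a median log2 fold change of -0.50. With an offset for transcript length these medians were -0.32 and -0.48, and rho over the members, with the weighted length, was -0.30. In that fit no gene at all passed the adjusted threshold, the smallest adjusted p being 0.131. The members then had a median log2 fold change of -0.39, beside 0.09 for all genes, with 45 of 48 below 0 and 16 lower at an unadjusted p below 0.05, where 7.2% of all genes were. Pola2 kept its size (-1.40) and Gins1 did not (-0.55).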

How the data were processed

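The deposited data were a table of genes and, for each library, a table of transcripts. Per the paper's methods and the submitters' processing notes, the authors made SmartSeq2 libraries, called bases with bcl2fastq 2.20 and quantified single-end reads on Gencode vM16 (GRCm38) with kallisto 0.44.0. The authors deposited estimated counts, which need not be whole on transcripts, summed by gene symbol and rounded without normalization or filter, and TPM per transcript, which adjust for length and depth. The strand setting is not given in the sources used here. Sums of transcript estimates were within 1 count of 97.5% of the gene values. The reads carry no molecular identifiers.

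Groups came from the genotype labels, 6 KO and 4 WT. The study counts its n in embryos, but the labels do not tie each library to 1 embryo, so p-values measure the spread between these libraries. The genes that reached 11 counts over all libraries were fitted with edgeR 4.0.16 (R 4.3.3), TMM, robust glmQLFit and glmQLFTest, at a Benjamini-Hochberg adjusted p below 0.1, the threshold of the study. Alternatives were DESeq2 1.42.0 with and without the study's log2 threshold of 0.1, DESeq2 size factors, filterByExpr, a filter at 1 count, no robust estimation, a loess (span 0.3) offset for transcript length, a term for Xist level, standing for embryo sex, TPM in place of CPM and leaving out each library. The fit by transcript, and the median of all genes on the TPM scale, were chosen after seeing the data. Gene positions, exons and 31-base words came from Gencode vM21, promoters from RefSeq (GRCm38.p6). Tables were made with Python 3.11.15, pandas 2.3.3, NumPy 2.4.6 and SciPy 1.17.1.

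The members, the lists and the rules were chosen with earlier results of these data known. Given library by library were members past the threshold, members whose groups do not overlap, the member with the smallest p in each complex and those with the highest and lowest fold change, 13 in all. Other genes of the pathway and mitosis lists are named where they passed the threshold or had the smallest p of their list. Cell type markers are named where they passed the threshold. Slamf1, Cd48, Ly6a, Clec4f, Vcam1, Cd68 and Mrc1 are named outside these rules. Orc2, Rpa1, E2f1, E2f2, E2f3 and Mki67 were named after their values were seen.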

Additional observations from a re-analysis of the deposited data

Results flagged for a closer look

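Single libraries that stood apart from the others of their group, by the share of the group's range taken by the gap to the nearest library, were found in 7 of 96 tests over 48 members and 2 groups. Chance gives about 1 in 20. Orc1 was lowest in KO replicate 2 at 12.6 CPM, where the other libraries of that group had 19.2 to 22.2. Orc2 was highest in KO replicate 1 at 63 CPM, where the other libraries of that group had 32 to 39. Orc4 was lowest in WT replicate 3 at 32.4 CPM, where the other libraries of that group had 42.2 to 42.9. Gins2 was highest in KO replicate 6 at 154 CPM, where the other libraries of that group had 91.5 to 104. Pold3 was lowest in KO replicate 4 at 65.5 CPM, where the other libraries of that group had 79 to 85.9. Rpa1 was lowest in WT replicate 4 at 60.4 CPM, where the other libraries of that group had 213 to 261. Rpa3 was highest in KO replicate 5 at 49.4 CPM, where the other libraries of that group had 34.3 to 37.9. None of these 7 genes was called by edgeR with all libraries. Orc2 was called lower by DESeq2 with the settings of the study and without a threshold, and by edgeR with filterByExpr and without WT replicate 2. Rpa3 was called lower by DESeq2 without a threshold, and Pold3 by edgeR without WT replicate 4. The causes were not tested.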

How the results depend on the processing

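Across all alternatives the median log2 fold change of the members stayed below 0, from -0.59 to -0.32 with each library left out, -0.39 with the length offset and -0.51 with Xist as a covariate. The ratio of group means, -0.50 in CPM, was -0.09 in TPM, where all genes moved by a similar amount. The 4 members lower became 14 with DESeq2 without a fold-change threshold, 8 with filterByExpr, and 0 with the length offset and with Xist, where 16 and 17 members were lower at an unadjusted p below 0.05. Of all genes tested, 6.85% were called lower with DESeq2 without a threshold and 4.73% with filterByExpr, and 7.2% and 9.24% were lower at an unadjusted p below 0.05 with the length offset and with Xist. The members called lower ranged from 0 to 9 with each library left out (0 without KO replicates 1, 2, 4, 5 or 6 or WT replicate 1, 2 without WT replicate 3, 5 without KO replicate 3, and 9 without WT replicate 2 or 4), where 0 to 3.6% of all genes tested were called lower. No setting called a member higher.

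Over all genes, 446 lower and 221 higher became 1145 and 998 with DESeq2 without a threshold, 551 and 585 with the study's settings, and 0 and 0 with the length offset and with Xist. Leaving out a library gave 0 to 598 lower and 0 to 405 higher. Signs turned for 5 uncalled members, whose log2 fold changes with each library left out ran from -0.42 to 0.24 for Orc3 and -0.36 to 0.12 for Pola1 (above 0 without WT replicate 1), -0.15 to 0.31 for Pold1 (below 0 without WT replicate 4, and -0.06 without KO replicate 2), -0.22 to 0.07 for Rfc1 (above 0 without WT replicate 4) and -0.50 to 0.03 for Rpa1 (above 0 without WT replicate 3). The cause was not tested. No paired analysis was possible because the labels give no replicate numbers shared between the groups. The precision is limited by 4 WT libraries that differ among themselves.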
